A study of Drosophila melanogaster with 24 samples.

Results

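The centromere-facing end of chromosome arm 2L was followed through 290 ATAC-seq peaks, out of 11145 peaks on all arms and 1692 on 2L. Members were all peaks on 2L that start beyond 19.5 Mb, apart from 5 peaks in the histone gene repeat between 21.4 and 21.56 Mb. ATAC-seq reads open chromatin by letting a transposase insert sequencing adapters into accessible DNA, so a higher count at a peak means more insertions there. Brains of adult female Drosophila melanogaster were sampled in 8 groups of 3 libraries, 24 in all. The groups were OreR (the wild-type laboratory strain Oregon-R), H3.3null, H3.3S31A and H3.3H3.2, each at day 1 and at day 10 after the adults eclosed, that is, left the pupal case. By their names, H3.3null flies lack the replacement histone H3.3, H3.3H3.2 flies make the replicative histone H3.2 instead, and in H3.3S31A flies the serine at position 31 of H3.3 is an alanine. The labels do not give the genetic background of the 3 altered genotypes, so a strain difference from OreR and the histone change cannot be told apart in any comparison with OreR. A library comes from pooled brains, and nothing in the labels says how the replicates were separated, so p-values measure the spread between these libraries. In whole brains, a smaller share of cells with an open site and less opening per cell cannot be told apart.

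Pericentromeric heterochromatin is the compact, repeat-rich chromatin around a centromere, marked by methylation of histone H3 at lysine 9 and bound by the protein HP1a. In Drosophila it silences euchromatic genes that are moved next to it, yet it also holds its own active genes, such as light (lt) and RpL5 on 2L, which need the heterochromatic setting to work. H3.3 is the histone H3 variant that is laid down outside DNA replication, in non-dividing cells such as neurons too, at active genes, at regulatory elements and, in many animals, in heterochromatin.

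The peaks fell into 3 stretches. A distal stretch before the histone repeat held 170 peaks, a proximal stretch from the repeat to 22 Mb held 20, and the arm end beyond 22 Mb held 100. The peaks ran from 19508127 to 23510701, coordinates being given as the authors' table gives them, in the dm6 build named in the submitters' processing notes. Of the arm-end peaks 34.0% lay over an annotated gene, against 72.9% of the distal, 85.0% of the proximal and 77.0% of all peaks. An annotated gene end lay within 500 bp of the centre of 10.0% of arm-end peaks, 37.6% of distal peaks, 55.0% of proximal peaks and 37.3% of all peaks. Median peak width was 567 bp at the arm end, 423 bp in the distal stretch and 455 bp over all peaks. The distal stretch was thus near the share of all peaks in both measures, the 20 proximal peaks lay above it, and the arm end, poor in genes, lay well below it. Peak levels were alike, with a median of 63.7 CPM (normalised counts scaled to a common library total) at the arm end, 58.1 in the distal stretch and 60.9 over all peaks. The gene table gives no strand, exons or transcripts, so a peak is described only as over, near or between genes.

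The outermost member, 2L:19508127-19509003 over cyst and Hasp, had a median of 140.5 CPM over the libraries, and the nearest peak outside it, 2L:19490036-19490213 over CG10194, had 27.2 CPM. Beside the histone repeat the last members were 2L:21397232-21397621 (63.3 CPM) and 2L:21561869-21562246 (39.4 CPM), both between genes. Their left-out neighbours were 2L:21404068-21404351 over the histone pseudogene His-Psi:CR31616 (35.5 CPM) and 2L:21549141-21550054 (103 CPM).

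Library totals over the whole peak table ran from 3021672 to 4890579 counts, and every member had at least 22 counts in every library, so no member was lost to the filter on low counts. The tissue label was checked on marker genes: all 6 neuronal and all 3 glial genes had a peak over the gene, none of the 3 photoreceptor or 3 muscle genes did, and Yp1 was the only 1 of 3 fat body genes that did. Replicates within a group differed by 2.20 to 8.22 times the counting noise (chi-square per degree of freedom), so none was a copy of another.

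Against OreR, 106 of the 290 peaks were called in at least 1 of 6 comparisons (3 genotypes at 2 ages) and 184 in none. That is 36.6% of the members, close to the 38.7% of all peaks called in at least 1 of the 6. Called peaks are those with an adjusted p under 0.05 in edgeR's quasi-likelihood test, adjusted by Benjamini-Hochberg over all 11145 peaks. The called peaks were 61 of 170 in the distal stretch, 5 of 20 in the proximal stretch and 40 of 100 at the arm end. The 3 comparisons of 1 age share the same 3 OreR libraries, so each genotype's values are set side by side below without counting their overlap as evidence.

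H3.3null at day 1 had 27 members higher and 45 lower than OreR. Of all peaks, 14.1% were called higher and 10.6% lower in that comparison, against 9.31% and 15.5% of the members. At day 10, 35 members were higher and 31 lower, where 15.5% of all peaks were higher and 9.00% lower. H3.3H3.2 had 8 members higher and 22 lower at day 1 (background 6.94% higher, 4.21% lower) and 14 higher and 16 lower at day 10 (background 7.13% and 3.54%). H3.3S31A had 6 members higher and 21 lower at day 1 (background 6.24% and 4.27%), and 8 higher and 15 lower at day 10 (background 6.43% and 3.77%). Among the members, 12.1% were higher and 10.7% lower in H3.3null at day 10. The shares for H3.3H3.2 were 2.76% and 7.59% (day 1) and 4.83% and 5.52% (day 10). The shares for H3.3S31A were 2.07% and 7.24% (day 1) and 2.76% and 5.17% (day 10). Higher calls were thus scarcer among the members than among all peaks at each age and genotype. Lower calls were more frequent, the H3.3null share at day 10 lying close to the background. Runs of adjacent peaks called in 1 direction count here peak by peak. In H3.3null they held 28 of 45 lower and 12 of 27 higher calls at day 1, then 14 of 31 and 18 of 35. In H3.3H3.2 they held 13 of 22 lower and 2 of 8 higher calls, then 11 of 16 and 5 of 14. In H3.3S31A they held 8 of 21 and 2 of 6, then 8 of 15 and 4 of 8.

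**Figure D1:**
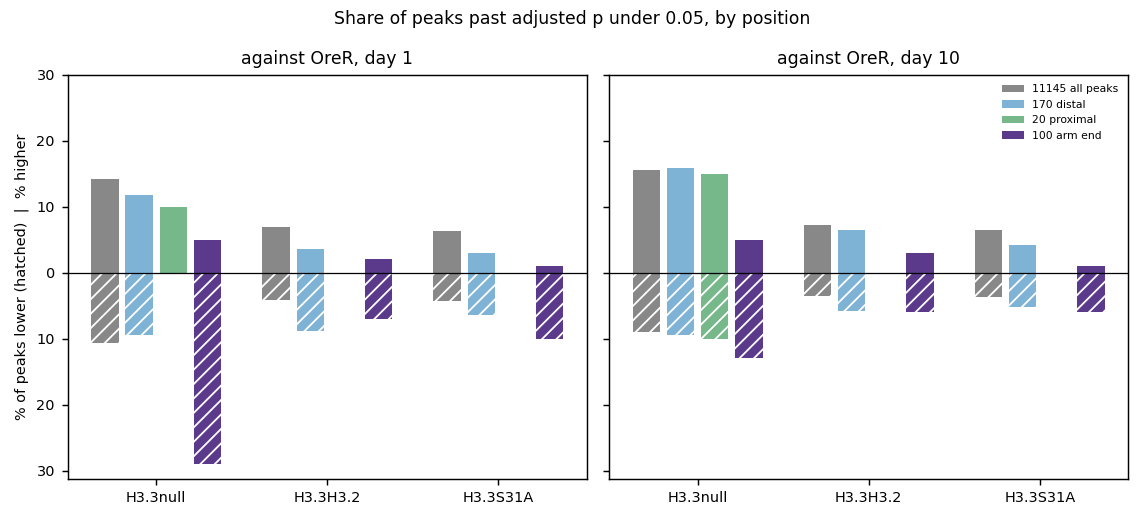
Share of peaks called higher (plain bars, upward) and lower (hatched bars, downward) than OreR at adjusted p under 0.05, in percent, for all peaks and for the distal, proximal and arm-end peaks, in 3 genotypes at day 1 (left) and day 10 (right). The arm end of H3.3null at day 1 has the longest downward bar, 29 of 100 peaks against 10.6% of all peaks.

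In H3.3null the direction of the calls differed along the arm. In the distal stretch it had 20 peaks higher and 16 lower at day 1 and 27 higher and 16 lower at day 10. At the arm end it had 5 higher and 29 lower at day 1, and 5 higher and 13 lower at day 10. Distal calls in H3.3H3.2 were 6 higher and 15 lower at day 1 and 11 higher and 10 lower at day 10. In H3.3S31A they were 5 higher and 11 lower, then 7 higher and 9 lower. Lower distal calls thus outnumbered higher ones in these genotypes, except in H3.3H3.2 at day 10. H3.3H3.2 had 2 arm-end peaks higher and 7 lower at day 1 and 3 higher and 6 lower at day 10, while H3.3S31A had 1 higher and 10 lower at day 1 and 1 higher and 6 lower at day 10. Leaving out 1 library gave 5 to 12 lower peaks in H3.3H3.2 at day 1, with 12 without OreR replicate 1, and 6 to 16 in H3.3S31A, with 16 without OreR replicate 1 and 6 without OreR replicate 3. In the proximal stretch no peak was called in H3.3H3.2 or H3.3S31A, and H3.3null had 2 higher and 0 lower at day 1 and 3 higher and 2 lower at day 10.

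**Figure D2:**
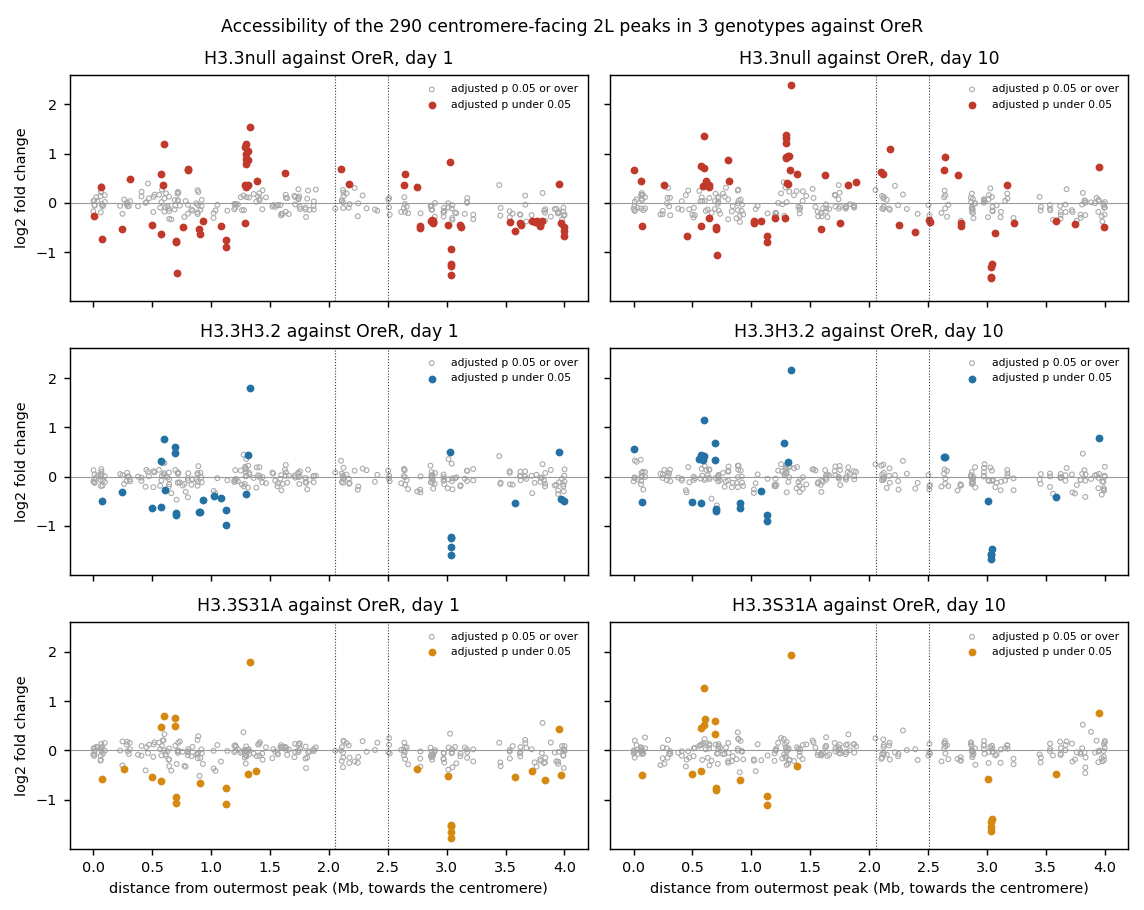
Log2 fold change of each of the 290 peaks against OreR (vertical axis) by its distance in Mb from the outermost peak, towards the centromere (horizontal axis), for the 3 altered genotypes (rows) at day 1 and day 10 (columns). Filled points have an adjusted p under 0.05 and dotted lines mark where the proximal and arm-end stretches begin; the 4 lowest points of every panel but H3.3null day 1 are the peaks over lncRNA:CR46268, and the highest point of every panel is the peak over CG31676.

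Most calls were shared by both ages, among the members as among all peaks, though not in every stretch. The 2 ages use different libraries throughout, OreR included. In H3.3null 41 peaks were called in the same direction at both ages, 23 higher and 18 lower, which is 56.9% of the day 1 calls and 62.1% of the day 10 calls. At the arm end only 13 of its 34 day 1 calls (38.2%) were shared, against 72.2% of its distal day 1 calls. Those 13 made up 72.2% of the arm-end calls of H3.3null at day 10. H3.3H3.2 had 21 such peaks (70.0% of its calls at each age) and H3.3S31A had 21 (77.8% of day 1 and 91.3% of day 10 calls). Over all peaks the shares of day 1 and day 10 calls were 62.7% and 63.3% in H3.3null, 70.8% and 72.9% in H3.3S31A, and 70.4% and 73.5% in H3.3H3.2. No member was called in opposite directions at the 2 ages in any genotype.

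Most arm-end peaks of H3.3null lay below OreR at day 1. The 100 peaks had a median log2 fold change of -0.21, and 86 of them were below 0, whereas the median over all peaks was -0.00090. Of the 66 arm-end peaks between genes 22 were lower and 2 higher, with a median of -0.24 and 62 below 0. Of the 34 arm-end peaks over a gene 7 were lower and 3 higher, with a median of -0.15. At day 10 the arm-end median was -0.086, with 65 peaks below 0. The 66 peaks between genes then had 5 lower, 2 higher and a median of -0.069. The 34 peaks over a gene had 8 lower, 3 higher and a median of -0.17, so the order of the 2 classes was reversed from day 1. The other genotypes' arm-end medians were -0.070 (H3.3S31A) and -0.056 (H3.3H3.2) at day 1, then -0.029 and -0.066 at day 10. Those small medians crossed 0 without OreR day 1 replicate 3 (H3.3H3.2, 0.0011), OreR day 10 replicate 2 or H3.3S31A day 10 replicate 1 (H3.3S31A, 0.0031 and 0.048).

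Summed over the 100 arm-end peaks, the 3 OreR libraries held 8966, 10744 and 11072 CPM at day 1 and the H3.3null libraries 8471, 8719 and 9198 CPM. The groups overlapped, because OreR replicate 1 lay inside the H3.3null range. At day 10 OreR held 10183, 10247 and 9348 CPM and H3.3null 9708, 8200 and 9810 CPM, and again the groups overlapped. H3.3H3.2 held 8860, 9668 and 9962 CPM at day 1 and 9254, 8958 and 9148 CPM at day 10, and H3.3S31A held 9270, 8455 and 9961 CPM and then 8302, 10250 and 9710 CPM.

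The number of lower arm-end peaks in H3.3null at day 1 rested on single libraries. It was 29 with all libraries, 39 without OreR replicate 1, 12 without OreR replicate 2 and 11 without OreR replicate 3. Leaving out H3.3null replicate 1, 2 or 3 gave 10, 17 or 20. The median stayed below 0 in all 6 cases, between -0.31 and -0.17. At day 10 the count ran from 8, without OreR replicate 1, to 14, and the median without H3.3null replicate 2 was -0.0039.

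Windows around the other centromeres, chosen after the data were seen, held 449 peaks on 3L beyond 23 Mb, 366 on 3R before 4.2 Mb and 204 on X beyond 21.6 Mb. OreR libraries of day 1 summed there to 45939, 57758 and 59356 CPM on 3L, to 57346, 75595 and 80905 CPM on 3R and to 29982, 37516 and 38905 CPM on X. Replicate 1 was the lowest of the 3 in each window, as at the arm end of 2L. H3.3null at day 1 had 183 of 449 peaks lower on 3L (median log2 fold change -0.30), 158 of 366 on 3R (-0.33) and 102 of 204 on X (-0.38). In H3.3null at day 1 the shift at the arm end of 2L was therefore smaller than in these windows, a difference given as values with no test. At day 10 its medians were -0.12 on 3L, -0.18 on 3R and -0.31 on X, against -0.086 at the arm end. The other genotypes did not all follow this order. On X at day 1 H3.3H3.2 had -0.028 and H3.3S31A -0.035, against -0.056 and -0.070 at the arm end. On 3L and 3R they had -0.11 to -0.16. No window was taken on 2R. The part of the spread between libraries in the arm-end calls was not tested.

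**Figure D3:**
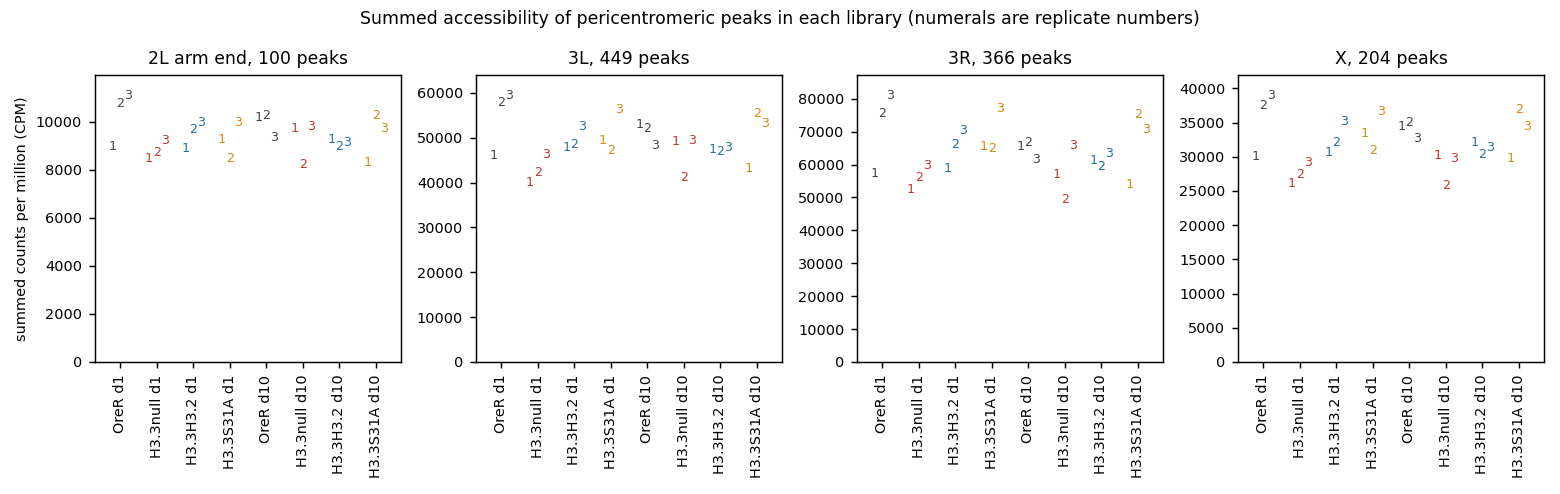
Summed accessibility in CPM (vertical axis, from 0) of the arm-end peaks of 2L and of the windows of 3L, 3R and X, for each library by group (horizontal axis; d1, day 1; d10, day 10), each numeral being that replicate. OreR replicate 1 at day 1 lies below OreR replicates 2 and 3 in all 4 panels (8966 against 10744 and 11072 CPM at the arm end).

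Among arm-end peaks, 4 neighbours over lncRNA:CR46268, a long noncoding RNA gene, were lower in all 3 genotypes at both ages and spanned 3.342 kb. The largest, 2L:22545206-22546302, had 134, 176 and 188 CPM in OreR at day 1 and 212, 205 and 187 CPM at day 10. In H3.3null it had 62.9, 61.1 and 80.7 CPM at day 1 and 82.0, 59.4 and 70.4 CPM at day 10. H3.3H3.2 had 66.2, 65.8 and 79.2 CPM and then 74.0, 64.5 and 60.5 CPM, and H3.3S31A had 57.3, 43.9 and 72.3 CPM and then 71.2, 79.3 and 69.1 CPM. No library of the 3 genotypes reached the lowest OreR library at either age.

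Log2 fold changes at that peak were -1.29 ± 0.139 (SE) in H3.3null at day 1 (edgeR adjusted p = 1.72e-08) and -1.51 ± 0.140 at day 10 (6.71e-10), 2.44-fold and 2.85-fold lower. H3.3S31A had -1.52 and -1.46, and H3.3H3.2 had -1.24 and -1.60. H3.3H3.2 and H3.3null did not differ beyond their spread there, by 0.04 ± 0.145 at day 1 and -0.09 ± 0.148 at day 10 (edgeR adjusted p = 0.912 and 0.802). The neighbours 2L:22543900-22544392, 2L:22546398-22546724 and 2L:22546878-22547241 changed by -0.93 to -1.78 over the 6 comparisons. All 24 of these calls held in every alternative fit run.

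Some 7 kb before this run lies the peak over RpL5, which encodes a protein of the large ribosomal subunit and is a known heterochromatic gene. At 2L:22536637-22536945 OreR had 45.0, 35.3 and 34.9 CPM at day 1 and H3.3null 72.8, 65.1 and 65.7 CPM, with no overlap. The log2 fold change was 0.83 ± 0.136 (edgeR adjusted p = 1.08e-05). H3.3H3.2 was higher by 0.50 ± 0.137 at day 1 (edgeR adjusted p = 0.0104), a call lost without OreR replicate 2 (adjusted p = 0.0841), OreR replicate 3 (0.0688) or H3.3H3.2 replicate 2 (0.117). No genotype differed at day 10 by this test, where OreR had 48.1, 46.4 and 49.5 CPM and H3.3null 60.1, 68.5 and 49.6 CPM (adjusted p = 0.108).

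**Figure D4:**
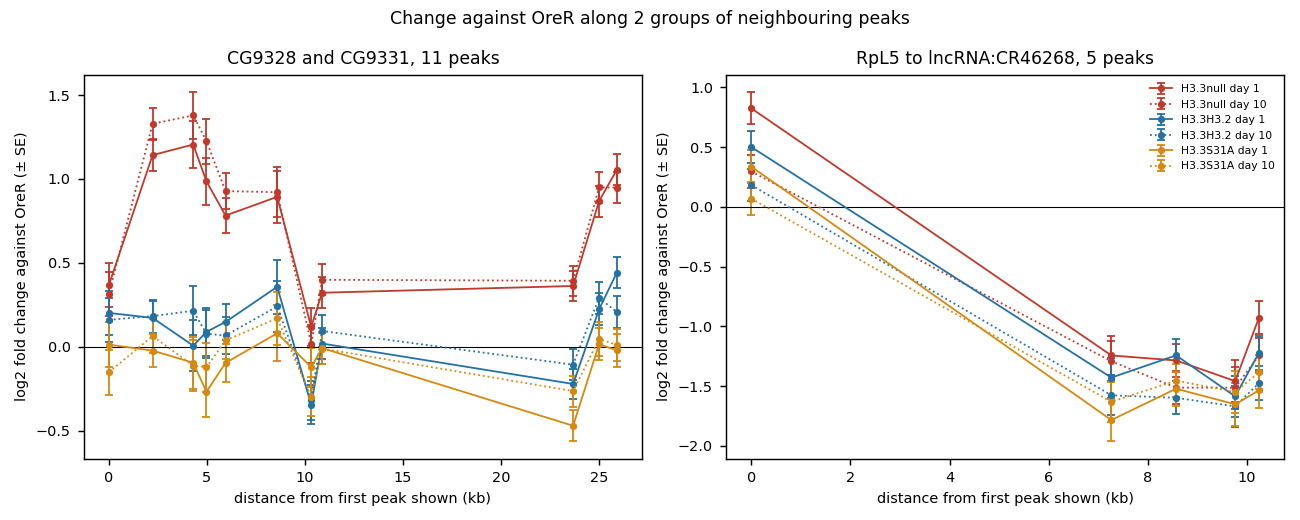
Log2 fold change against OreR with its standard error (vertical axis) for neighbouring peaks by distance in kb from the first peak shown (horizontal axis), at CG9328 and CG9331 (left, 11 peaks) and from RpL5 to lncRNA:CR46268 (right, 5 peaks), with colours for genotype, solid lines for day 1 and dotted lines for day 10. On the left H3.3null stands above the other genotypes at most peaks, up to 1.38, and on the right the 4 peaks of lncRNA:CR46268 lie between -0.93 and -1.78 in every genotype.

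Elsewhere at the arm end, H3.3null was higher at CG42748. Peak 2L:22146112-22146953 had 112, 121 and 129 CPM in OreR and 152, 159 and 153 CPM in H3.3null at day 1, and 112, 101 and 99.5 against 162, 165 and 169 CPM at day 10. The groups did not overlap, and the log2 fold changes were 0.36 ± 0.087 and 0.67 ± 0.088 (edgeR adjusted p = 0.00177 and 1.73e-07). H3.3H3.2 was higher there at day 10 by 0.40 ± 0.088 (edgeR adjusted p = 0.00131) but not called at day 1, and H3.3S31A was called at neither age.

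A lone peak between genes, 2L:23091048-23092501, was lower in all 6 comparisons, by 0.36 to 0.56 on the log2 scale. It had 296, 302 and 355 CPM in OreR at day 1, where the other 9 libraries of that age ran from 184 to 240 CPM. At day 10 the H3.3null call (-0.36, edgeR adjusted p = 0.0129) was lost without OreR replicate 1 (adjusted p = 0.0807), OreR replicate 2 (0.0548) or H3.3null replicate 2 (0.102), and the H3.3H3.2 call (-0.41) without OreR replicate 1 (0.0661). The opposite direction was seen at 2L:23460942-23461490, 44789 bp from the nearest annotated gene, with log2 fold changes of 0.39 to 0.50 at day 1 and 0.73 to 0.79 at day 10. There OreR had 39.9, 41.5 and 37.0 CPM at day 10 and the 9 other libraries of that age 53.2 to 73.9 CPM. All 3 day 1 calls were lost without OreR replicate 1 (H3.3null adjusted p = 0.183, H3.3S31A 0.174, H3.3H3.2 0.0723), and each also without other libraries.

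In the distal stretch the adjacent called peaks of H3.3null were most numerous over CG9328 and CG9331. At day 1 6 adjacent peaks (8.84 kb) and then 4 adjacent peaks (15.664 kb) were higher than OreR, with 1 uncalled peak between them. The called peaks had log2 fold changes of 0.32 to 1.21 at day 1. At day 10 the runs were of 5 and 4 peaks, with 0.39 to 1.38.

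Peak 2L:20799807-20800861 over CG9328 had 66.1, 86.3 and 82.1 CPM in OreR at day 1 and 174, 171 and 174 CPM in H3.3null. At day 10 it had 87.5, 73.7 and 82.5 CPM in OreR and 197, 208 and 207 CPM in H3.3null. H3.3H3.2 held 88.9, 90.5 and 85.4 CPM and later 96.7, 82.2 and 97.4 CPM, and H3.3S31A held 82.5, 72.8 and 75.8 CPM and later 91.0, 85.2 and 77.4 CPM. H3.3null thus stood apart from every other library of its age, 2.21-fold above OreR at day 1 and 2.51-fold at day 10 (log2 1.14 ± 0.096 and 1.33 ± 0.095, edgeR adjusted p = 1.04e-11 and 2.06e-13). H3.3H3.2 differed from OreR by 0.17 ± 0.098 and 0.18 ± 0.098 there, and H3.3S31A by -0.02 ± 0.10 and 0.06 ± 0.099, with no call. At the CG9331 end of the block, 2L:20823500-20824120 was higher in H3.3H3.2 too at day 1, with 96.1, 102 and 103 CPM against 77.1, 72.3 and 72.5 CPM in OreR (0.44 ± 0.094, edgeR adjusted p = 0.000707), and below H3.3null, which had 164, 145 and 152 CPM (-0.61 ± 0.089, 3.03e-06).

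Directly compared, H3.3H3.2 was lower than H3.3null over this block. At day 1 a run of 10 adjacent peaks over 24.314 kb was lower, by 0.30 to 1.20 on the log2 scale, and at day 10 runs of 5 and 4 peaks. At 2L:20801880-20802243 the difference was -1.20 ± 0.138 at day 1 and -1.16 ± 0.136 at day 10 (edgeR adjusted p = 2.97e-08 and 4.34e-08). These comparisons use the same H3.3null libraries as those with OreR. Peak 2L:20821271-20822308, 404 bp from CheB38c and between CG9328 and CG9331, was higher in H3.3null at day 1 (0.36 ± 0.089, edgeR adjusted p = 0.00200) and lower in H3.3S31A (-0.47 ± 0.091, 0.000222). That peak was chosen after its values were seen. The difference between H3.3S31A and H3.3null was not tested as a comparison of its own.

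The largest log2 fold change of any member in a comparison with OreR was at CG31676, some 16 kb beyond this block. Peak 2L:20840465-20840815 had 15.5, 14.2 and 5.27 CPM in OreR at day 1 and 5.49, 8.35 and 12.3 CPM at day 10. H3.3null had 35.4, 31.7 and 33.5 CPM and later 43.5, 47.3 and 48.2 CPM. H3.3S31A had 42.6, 36.8 and 40.7 CPM and later 33.8, 36.4 and 31 CPM, and H3.3H3.2 had 40.8, 35.4 and 44.9 CPM and later 38.2, 40.6 and 39.4 CPM. All 18 libraries of the altered genotypes were above all 6 OreR libraries. The log2 fold changes ran from 1.54 ± 0.212 in H3.3null at day 1 (edgeR adjusted p = 6.35e-07) to 2.40 ± 0.215 in H3.3null at day 10 (8.56e-11), or 2.90-fold to 5.27-fold. H3.3H3.2 had 1.80 and 2.16, and H3.3S31A 1.80 and 1.94.

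**Figure D5:**
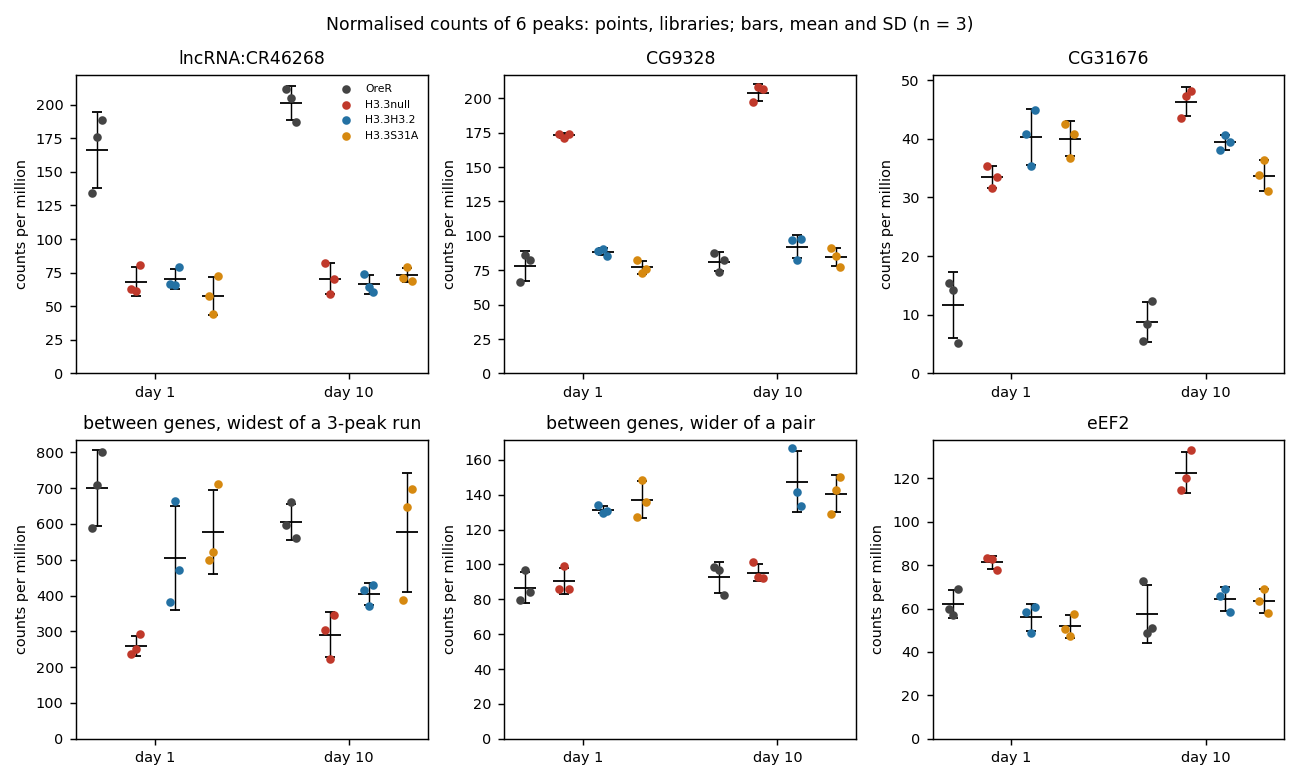
Normalised counts in CPM (vertical axes, from 0) of 6 peaks in every library, by age (horizontal axis) and genotype (colour), with the mean and SD of 3 libraries as bars. The peak over lncRNA:CR46268 is lower than OreR in all 3 genotypes, the peak over CG31676 higher in all 3, and the peaks over CG9328 and eEF2 are highest in H3.3null, where CG9328 reaches 197 to 208 CPM at day 10.

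In all, 15 members were called in 1 direction in all 6 comparisons with OreR, 4 higher (1.38% of the members) and 11 lower (3.79%), where 3.49% of all peaks were higher in all 6 and 1.11% lower. The higher ones were the CG31676 peak, 2L:23460942-23461490, 2L:20106680-20106952 between genes, and 2L:20082552-20083315 at neb and fok. The lower ones were the 4 peaks of lncRNA:CR46268, 2L:23091048-23092501 and 6 peaks of the distal stretch. As the 3 comparisons of an age share their OreR libraries, a library that stood apart would move all 3.

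At neb and fok, neighbouring peaks changed in opposite directions. Over both genes, 2L:20082552-20083315 had 107, 107 and 96.2 CPM in OreR and 170, 144 and 151 CPM in H3.3null at day 1, a log2 fold change of 0.59 ± 0.097 (edgeR adjusted p = 1.19e-05). It was 0.76 ± 0.101 at day 10. H3.3S31A had 0.46 at both ages and H3.3H3.2 0.31 and 0.44. The H3.3H3.2 call at day 1 was lost without OreR replicate 2 or 3 or H3.3H3.2 replicate 2 or 3 (adjusted p = 0.0650, 0.146, 0.114 and 0.0787). Less than 1 kb on, 2L:20084236-20085495 had 323, 265 and 210 CPM in OreR at day 1, and 155 to 185 CPM in all 9 other libraries of that age. Its log2 fold changes were -0.61 to -0.63 at day 1 and -0.42 to -0.53 at day 10. The gene neb encodes a kinesin-like motor protein.

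Nearer the arm's outer part, the peak over Hakai (2L:19582189-19582563), which encodes an E3 ubiquitin ligase tied to the complex that methylates RNA at adenosine, was lower. OreR had 55.1, 51.4 and 62.2 CPM at day 1 and 61.3, 55.2 and 55.2 CPM at day 10, while the 18 other libraries had 29.1 to 47.7 CPM. The log2 fold changes were -0.74 ± 0.125 and -0.46 ± 0.123 in H3.3null (edgeR adjusted p = 1.55e-05 and 0.00417), whereas H3.3S31A had -0.58 and -0.51 and H3.3H3.2 had -0.50 and -0.51. Between genes, 2L:20106680-20106952 went the other way, with 19.1, 23.5 and 20.8 CPM in OreR and 57.1, 39.5 and 49.2 CPM in H3.3null at day 1. The log2 fold changes at day 1 were 1.19 ± 0.170 (H3.3null), 0.69 ± 0.177 (H3.3S31A) and 0.77 ± 0.173 (H3.3H3.2), and at day 10 they were 1.36, 1.27 and 1.14. The H3.3S31A call at day 1 was lost without H3.3S31A replicate 2 (0.56, edgeR adjusted p = 0.0640).

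A gene-poor stretch of the distal part, more than 29 kb from the nearest annotated gene (lncRNA:CR40341), held peaks that moved in different ways within 19 kb. The pair 2L:20206269-20207993 and 2L:20208259-20208921 was lower in all 6 comparisons, by 0.49 to 0.94 and by 0.53 to 1.06 on the log2 scale. The first had 222, 286 and 317 CPM in OreR at day 1 and 130 to 178 CPM in the 9 other libraries of that age.

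The widest of the run, 2L:20215194-20218234, was called lower than OreR in H3.3null and in neither other genotype. It had 589, 710 and 800 CPM in OreR and 238, 250 and 291 CPM in H3.3null at day 1, and 596, 660 and 560 against 304, 223 and 346 CPM at day 10. H3.3H3.2 had 381, 665 and 472 CPM at day 1, overlapping OreR, and H3.3S31A 499, 521 and 713 CPM. At day 10 all H3.3H3.2 libraries lay below all OreR libraries, without a call, and H3.3S31A overlapped OreR. In raw counts H3.3H3.2 then had 1932, 1546 and 1740 and OreR 2389, 2688 and 2466. The library totals were 4038192 to 4620421 in H3.3H3.2 and 4040250 to 4347633 in OreR. The log2 fold changes were -1.43 ± 0.213 and -1.05 ± 0.211 in H3.3null (edgeR adjusted p = 1.87e-05 and 0.000573), while H3.3S31A (-0.28 ± 0.207) and H3.3H3.2 (-0.47 ± 0.207) were not called at day 1. H3.3H3.2 was above H3.3null at day 1 by 0.96 ± 0.211 (edgeR adjusted p = 0.00313; 0.0587 with only the compared groups in the fit). At day 10 that difference was 0.47 ± 0.211 (adjusted p = 0.178).

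Some 6 kb on the outer side, 2L:20199261-20199691 and 2L:20199808-20200684 were higher than OreR in H3.3S31A and H3.3H3.2 but not called in H3.3null. The second had 79.3, 96.7 and 84.0 CPM in OreR, 85.9, 99.3 and 86.1 CPM in H3.3null, 134, 130 and 131 CPM in H3.3H3.2 and 127, 149 and 136 CPM in H3.3S31A at day 1. H3.3null lay within or near the OreR range, and the other genotypes lay above both. The log2 fold changes were 0.66 ± 0.101 in H3.3S31A and 0.60 ± 0.10 in H3.3H3.2 (edgeR adjusted p = 5.37e-06 and 2.12e-05), and 0.06 ± 0.103 in H3.3null. H3.3H3.2 was above H3.3null by 0.54 ± 0.099 at day 1 and 0.63 ± 0.10 at day 10 (edgeR adjusted p = 0.000142 and 1.43e-05).

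Farther in, near the noncoding gene CR43158, 2L:20637451-20637879 and 2L:20638504-20638749 were lower in all 6 comparisons. The second had 57.7, 49.8 and 51.5 CPM in OreR and 22.9 to 30.9 CPM in the 9 other libraries at day 1, with log2 fold changes of -0.89 (H3.3null), -1.10 (H3.3S31A) and -0.98 (H3.3H3.2). At day 10 they were -0.79, -1.11 and -0.77. At the first, the day 1 calls of H3.3S31A and H3.3H3.2 were lost without OreR replicate 3 (edgeR adjusted p = 0.0730 and 0.168), which held 76.8 CPM against 41.1 and 53.6 CPM in replicates 1 and 2.

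Over all members, H3.3H3.2 against H3.3null gave 8 peaks higher and 21 lower at day 1 (background 4.91% higher, 6.44% lower) and 4 higher and 22 lower at day 10 (background 3.64% and 7.05%). The distal stretch held 18 of the lower calls at each age, and the arm end had 5 higher and 2 lower at day 1 and 1 higher and 3 lower at day 10. With only the compared groups in the fit, 18 arm-end peaks were higher at day 1. Without 1 library there were 2 (without H3.3null replicate 1, or H3.3H3.2 replicate 2 or 3), 3 (without H3.3null replicate 2), 4 (without H3.3null replicate 3) or 8 (without H3.3H3.2 replicate 1). The arm-end median was 0.12 at day 1, with 20 of 100 peaks below 0, 0.068 without H3.3H3.2 replicate 3, and 0.00046 at day 10. Outside the blocks above, a pair of peaks over spir, whose product nucleates actin filaments, was higher in H3.3null than in OreR and lower in H3.3H3.2 than in H3.3null at day 1. At 2L:20311641-20312483 OreR had 80.5, 93.4 and 88.8 CPM, H3.3null 169, 129 and 127 CPM and H3.3H3.2 74.2, 85.7 and 90.3 CPM at day 1. H3.3null was above OreR by 0.69 ± 0.114 and 0.88 ± 0.115 at day 1 and day 10 (edgeR adjusted p = 1.10e-05 and 1.73e-07), and H3.3H3.2 was below H3.3null by 0.76 and 0.78.

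At the arm end, 2L:23302674-23303507 and 2L:23506384-23507262, both between genes, were lower in H3.3null at day 1 (-0.47 ± 0.112 and -0.49 ± 0.119) and higher in H3.3H3.2 than in H3.3null (0.45 ± 0.111 and 0.50 ± 0.118, edgeR adjusted p = 0.00431 and 0.00262). The second had 77.9, 68.7 and 67.5 CPM in H3.3null and 91.0, 104 and 108 CPM in H3.3H3.2, with no overlap. At the first, the difference was not called without H3.3H3.2 replicate 3 (0.32, adjusted p = 0.0889). The peak over Clamp, whose zinc-finger product binds GA repeats and takes part in dosage compensation, was called higher in H3.3H3.2 than in H3.3null at day 10 (2L:22169067-22169334, 0.40 ± 0.133, edgeR adjusted p = 0.0480). That call was lost when any of 5 of the 6 libraries was left out (adjusted p = 0.0827 to 0.165).

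Between day 1 and day 10 few members changed. OreR had 3 called peaks (1.91% of all peaks were called), H3.3null 3 (0.924%), H3.3S31A 2 (0.987%) and H3.3H3.2 1 (0.610%), and none of them was at the arm end. Of these 9 calls 8 were falls, the peak of tsh and 1 of neb and fok each counting in more than 1 genotype. Among all peaks falls outnumbered rises too. There were 133 falls and 80 rises in OreR, 60 and 43 in H3.3null, 89 and 21 in H3.3S31A, and 58 and 10 in H3.3H3.2. The peak over eEF2, the elongation factor that moves the ribosome along mRNA, rose in H3.3null by 0.60 ± 0.117 (2L:21680824-21681553, edgeR adjusted p = 0.00428), from 83.2, 82.7 and 77.8 CPM to 115, 120 and 133 CPM. OreR had 59.6, 56.9 and 69.2 CPM at day 1 and 72.8, 48.6 and 50.9 CPM at day 10 there. H3.3null was above OreR at both ages, by 0.39 ± 0.123 and 1.10 ± 0.121 (edgeR adjusted p = 0.0160 and 5.18e-09).

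The peak over tsh, which encodes a zinc-finger transcription factor that patterns the fly trunk and works in the visual system, fell with age in 3 genotypes. At 2L:21828087-21829061 OreR had 156, 160 and 153 CPM at day 1 and 119, 121 and 135 CPM at day 10, H3.3null 142, 149 and 144 and then 119, 107 and 119 CPM, and H3.3H3.2 167, 181 and 165 and then 141, 134 and 117 CPM. H3.3S31A had 153, 156 and 150 CPM and then 130, 126 and 120 CPM. In every genotype all day 10 libraries lay below all day 1 libraries. The log2 changes were -0.32 ± 0.084 (OreR), -0.33 ± 0.085 (H3.3null) and -0.39 ± 0.083 (H3.3H3.2; edgeR adjusted p = 0.0367, 0.0476 and 0.0169), and -0.28 ± 0.085 in H3.3S31A, not called (0.114). Leaving out 1 library ended the call in 5 of 6 cases in OreR (adjusted p = 0.0621 to 0.178), in all 6 in H3.3null (0.0849 to 0.218) and in 3 in H3.3H3.2 (0.0502 to 0.196). With only the compared groups in the fit the calls in OreR (0.155) and H3.3null (0.0656) were lost too.

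Of the other age calls, 2L:21899203-21899793, 914 bp from CG11629, fell in H3.3null from 124, 137 and 113 CPM to 76.2, 91.0 and 93.0 CPM (-0.52 ± 0.099, edgeR adjusted p = 0.00428). This call was lost without H3.3null day 1 replicate 2 (0.0648) or day 10 replicate 1 (0.0582). The CG10631 peak 2L:19754808-19755357 fell in OreR by 0.49 on the log2 scale (edgeR adjusted p = 0.00616), a call lost without day 1 replicate 1 (0.0616) or day 10 replicate 1 (0.0503), and the neighbouring peak 2L:19755859-19757047 fell in H3.3S31A by 0.36 (0.0368). The peak 2L:20082552-20083315 at neb and fok fell by 0.42 in OreR and in H3.3S31A (0.0194 and 0.0213). Leaving out any of 5 libraries ended the H3.3S31A call at CG10631 (adjusted p = 0.0698 to 0.240), any of 4 that at neb and fok (0.0842 to 0.159) and any of 3 the OreR call there (0.0685 to 0.150). With only the compared groups in the fit the H3.3S31A calls were lost too (0.225 and 0.144).

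No member's age effect in an altered genotype differed from that of OreR by edgeR's test of the difference (0 called, where 0.00% of all peaks were called), nor by DESeq2. At an unadjusted p under 0.05 there were 19 members in H3.3null, 5 in H3.3S31A and 2 in H3.3H3.2, and the smallest adjusted p were 0.155, 1.00 and 0.999.

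Genes of 3 lists were looked up. Of 10 transcription factor genes 8 had a member peak, 17 peaks in all. The others, ham and tj, lie on 2L outside the region and could have none. None of the 17 was called against OreR at day 1 in any genotype. At day 10, 3 were lower in H3.3null (median log2 fold change of the list -0.12, of all peaks -0.0063) and 1 was higher in H3.3H3.2. Of all peaks, 9.00% were lower in H3.3null and 7.13% higher in H3.3H3.2 at that age. The lower ones were 2 peaks of tio, a zinc-finger factor related to tsh, and 1 peak of Hr38, a nuclear receptor gene that responds to neuronal activity. The tio peak 2L:22024283-22024858 had 177, 184 and 181 CPM in OreR and 124, 155 and 136 CPM in H3.3null at day 10 (-0.39 ± 0.093, edgeR adjusted p = 0.00149), and 2L:22018678-22019486 had 209, 173 and 210 against 149, 164 and 153 CPM (-0.35 ± 0.094, 0.00507).

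At Hr38, 2L:20704715-20705329 was lower by 0.31 on the log2 scale (edgeR adjusted p = 0.0268), a call lost without OreR replicate 1 or 3 or H3.3null replicate 1 or 3 (0.0559 to 0.120). The higher peak lies 24 bp from cad, a homeobox gene (2L:20783159-20783392, 0.67 ± 0.179 in H3.3H3.2 at day 10, edgeR adjusted p = 0.00825). It was not called without OreR replicate 2 (0.0587) or H3.3H3.2 replicate 2 (0.0683). Peaks of Hr39 and dimm, a nuclear receptor and a regulator of neuroendocrine cells, and of E2f2 and Mondo were called in no comparison.

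Of 6 signalling and cell surface genes 4 had peaks, 11 in all. Of the others, swi2 lies on arm 2R and could have none, while cta lies in the region without a member peak. In H3.3null 1 of the 11 peaks was higher at day 1, and 1 higher and 1 lower at day 10. Of all peaks, 14.1% were higher at day 1, and 15.5% higher and 9.00% lower at day 10. None of the 11 was called in the other genotypes against OreR, where 10.2% to 11.1% of all peaks were called. Both higher peaks lie over spi, which encodes a ligand of the epidermal growth factor receptor. At 2L:19574854-19575791 OreR had 221, 215 and 207 CPM and H3.3null 289, 261 and 250 CPM at day 1 (0.31 ± 0.093, edgeR adjusted p = 0.0102; 0.0825 without H3.3null replicate 1). At 2L:19568671-19568976 the day 10 difference was 0.45 ± 0.149 (edgeR adjusted p = 0.0218; 0.109 without OreR replicate 3 and 0.248 without H3.3null replicate 3). The lower peak lies over step, a guanine nucleotide exchange factor for Arf proteins (2L:21757366-21757555, -0.44 ± 0.136, edgeR adjusted p = 0.0138; 0.101 without OreR replicate 3 and 0.119 without H3.3null replicate 3). Peaks of Ac3, an adenylyl cyclase gene, and of Tsp39D, a tetraspanin gene, were not called.

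Of 5 heterochromatin genes of 2L, lt, cta and CG17490 had no member peak, RpL5 had 1 and CG17493 had 3. Apart from RpL5, described above, none of these peaks was called in any comparison, where 38.7% of all peaks were called in at least 1 comparison with OreR. The list's median log2 fold change in H3.3null was -0.078 at day 1 and 0.022 at day 10, over 4 peaks.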

How the data were processed

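The deposited table holds raw counts for 1 peak set shared by all 24 libraries; 0 columns were left unused. The submitters' processing notes name the build dm6, STAR 2.7.7a, SAMtools 1.9, bedtools 2.26, deepTools 3.2.0, Subread 2.0.1 with featureCounts and DESeq2 1.34.0, without their roles. Peak caller, duplicate handling, transposase shift and counting rule are not given in the sources used here, and a peak set shared by all libraries can miss sites open in few of them. Per the labels, the extraction text describes RNA libraries although the molecule is genomic DNA, and the values were read as ATAC-seq counts. Whether peak starts count from 0 or 1 is not stated.

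Counts were fitted with edgeR 4.0.16 (R 4.3.3; TMM scaling, filterByExpr by group, robust quasi-likelihood fit, 1 coefficient per group over all 24 libraries, 16 residual degrees of freedom). The filter removed 0 peaks, TMM factors ran from 0.970 to 1.02 and the common biological coefficient of variation was 8.96%. The 12 comparisons of 2 groups and 3 differences of age effects were adjusted by Benjamini-Hochberg over 11145 peaks, and the script was tested on simulated data. Log2 fold changes are given ± SE, which is the estimate over the square root of the F statistic. CPM are TMM-normalised.

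Genes came from the RefSeq table of Release 6, of which 526 genes reach the region, and a peak was given to a listed gene when it overlapped the gene or its centre lay within 500 bp of it. Named peaks were, in each comparison of 2 groups, up to 5 higher and 5 lower called peaks with the smallest p and no overlap between groups, those called in all 6 comparisons with OreR, those of the gene lists and those nearest the region's limits. From these the text gives a selection. Members, stretches, lists and rules were chosen with earlier results of these data known. No genome sequence was used here.

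Alternatives were DESeq2 1.42.0, other scaling, other filters, fits with the compared groups alone, a replicate block and leaving out each library.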

Additional observations from a re-analysis of the deposited data

How the results depend on the processing

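Under DESeq2, relative log expression scaling, TMM factors taken without the members, no filter, a minimum mean count of 50, the compared groups alone and the replicate block, the counts of called members stayed within 1.5 times the reported ones, with these exceptions. With only the compared groups in the fit, H3.3H3.2 against H3.3null at day 1 gave 50 calls in place of 29, H3.3H3.2 with age gave 2 in place of 1, and H3.3S31A with age gave 0 in place of 2; DESeq2 gave 2 for H3.3H3.2 with age; the causes were not tested. Deviations from group means correlated by -0.394 to 0.390 in 84 pairs of same-numbered replicates (median -0.007, 24 over 0.1). In 168 pairs with different numbers they correlated by -0.423 to 0.424 (median -0.0023, 35 over 0.1). At day 1, however, replicate 3 had the highest arm-end sum of its group in every genotype, and likewise in the 3L, 3R and X windows. At day 10 the replicate number with the highest arm-end sum differed between genotypes. A shared batch of same-numbered replicates was not tested as a cause. The replicate block gave 72 calls for H3.3null at day 1, 69 at day 10 and 30 for H3.3S31A at day 1. Leaving out 1 library gave 45 to 77 calls (day 1) and 52 to 69 calls (day 10) for H3.3null, 23 to 32 and 21 to 25 for H3.3H3.2, 22 to 34 and 20 to 24 for H3.3S31A, and 22 to 27 and 17 to 27 for H3.3H3.2 against H3.3null. Age calls ran from 0 to 3 in OreR, 1 to 3 in H3.3null, and 0 to 1 in H3.3H3.2 and H3.3S31A, and the age effect of H3.3null differed from OreR at 0 to 1 members. Lower arm-end peaks of H3.3null numbered 10 to 39 at day 1 and 8 to 14 at day 10, alternatives chosen after the data were seen, and with only the compared groups in the fit H3.3H3.2 had 13 lower arm-end peaks at day 10 in place of 6. Counting only peaks that start beyond 22 Mb leaves 100 members. Of 147 log2 fold changes of named peaks 119 kept their side of the threshold in every fit, 28 lost it in at least 1, and 0 changed sign. Depth limits single low peaks most: CG31676 had 22 counts in its lowest library.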
